A study of Mus musculus with 107 samples.

Results

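Ribosome-bound RNA was compared between neural progenitor cells (NPC) differentiated with ciliary neurotrophic factor (CNTF) together with 5% fetal bovine serum (CNTF+5% FBS, n = 4) and NPC differentiated with CNTF alone (CNTF, n = 4). These 8 libraries were chosen by their sample titles from the 107 of the series, and the comparison asks what serum changes when CNTF is present. Libraries of 2 kinds without CNTF were set beside them: NPC left to differentiate spontaneously (SPONT, n = 4) and NPC given serum alone (5% FBS, n = 4). All 16 cultures were RiboTag+ NPC of strain C57BL/6, made from embryonic stem cells by neural induction with retinoic acid and purmorphamine, and all were cultured for 4 days after the growth factors EGF and FGF had been cut to 1 ng/ml from the 100 ng/ml of expansion. CNTF cultures received 100 ng/ml of the cytokine, whereas the labels give no CNTF dose for the combined culture. All NPC came from a single female line of embryonic stem cells, so no other line was tested. RiboTag adds an HA tag to the ribosomal protein Rpl22, and the antibody against HA brings down ribosomes with the RNA on them.

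CNTF belongs to the interleukin 6 family of cytokines. It binds the receptor subunit Cntfr, joins it to Lifr and to the shared subunit gp130 (gene Il6st), and activates the kinases Jak1 and Jak2 and the transcription factor Stat3. In neural progenitors this pathway is a classical inducer of astrocytes and of the filament gene Gfap. Serum carries lipids, growth factors, lysophosphatidic acid, retinol, iron carriers and hormones, and it is known to drive actin assembly with the transcription factors SRF and YAP behind it.

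Levels are given in CPM, the usual scaling of a gene's count by all counts of its library, in the order of replicates 1 to 4. A log2 fold change (log2FC) is that fitted by edgeR after scaling by the trimmed mean of M values (TMM), with its standard error (SE), and a gene was called where the adjusted p of the quasi-likelihood F test was below 0.01. Scaling by library totals in place of TMM would add 0.114 to the median log2FC of all genes, so fitted changes lie about that far below the ratio of 2 mean CPM. The study describes its culture replicates as biologically independent, but the labels do not tie these libraries to separate cultures, so p-values measure the spread between these samples, which may be technical in part. Total counts were 55269375 to 74847119 per library in CNTF and 68763231 to 79176236 in CNTF+5% FBS.

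The labelled cells were checked against markers. The summed level of 6 astrocyte markers was 22400 to 23470 CPM in CNTF and 15610 to 17530 CPM in CNTF+5% FBS, and that of 6 oligodendroglial markers 3036 to 3284 and 1303 to 1402 CPM. The 5 neuron markers summed to 264.0 to 276.4 CPM in CNTF and 136.3 to 159.4 CPM in CNTF+5% FBS, with 4 lower and 0 higher. The 5 defining markers of myeloid cells summed to at most 2.43 CPM in either group, with 4 of 5 under 1 CPM on average. The wider list of 14 myeloid genes summed to 25.6 to 29.5 CPM in CNTF and 10.4 to 12.98 CPM in CNTF+5% FBS, with 6 tested, 1 higher and 2 lower, and most of that sum was Cd14, a receptor for lipopolysaccharide, which fell from 23.7 ± 1.11 to 6.67 ± 0.467 CPM (log2FC -1.94). The 6 defining fibroblast and mural markers summed to 9.50 to 12.3 CPM in CNTF and 20.5 to 26.99 CPM in CNTF+5% FBS, with 4 and 2 of 6 under 1 CPM. The wider list of 14 summed to 211.1 to 228.3 CPM in CNTF and 187.8 to 215.0 CPM in CNTF+5% FBS, with 11 tested, 6 higher and 3 lower. Among those that fell, the potassium channel Kcnj8, a pericyte marker, went from 36.9 ± 1.75 to 8.29 ± 1.11 CPM (log2FC -2.27) and the proteoglycan Cspg4, which oligodendrocyte precursors also express, from 115 ± 3.83 to 33.5 ± 3.49 CPM (log2FC -1.89). The 4 defining endothelial markers summed to at most 0.796 CPM in CNTF and to 16.5 to 20.3 CPM in CNTF+5% FBS, but 3 of 4 of them stayed under 1 CPM there and the sum was nearly all Kdr, a receptor for vascular endothelial growth factor. The wider list of 10 endothelial genes summed to 8.68 to 9.44 CPM in CNTF and 21.6 to 26.3 CPM in CNTF+5% FBS, with 4 tested, 2 higher and 1 lower. Pluripotency markers summed to at most 2.37 CPM. The part of other cell types in the results was not tested. In bulk RNA, fewer cells of a type and less RNA per cell cannot be told apart, and this holds for each gene group below.

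Libraries within a group were not uniform in a few genes. In CNTF, replicates 3 and 4 stood at least 2-fold above replicates 1 and 2 in 6 of 9388 genes of at least 10 CPM, Egr1, Fos, Ier2, Socs3, Junb and Zfp36, most of which are immediate early genes. These names were picked after their values were seen. Egr1 was 30.2, 36.6, 199.0 and 231.4 CPM over the CNTF libraries and 152.3, 220.1, 192.1 and 142.9 CPM over the CNTF+5% FBS libraries. Results that involve these genes are therefore also given against CNTF replicates 1 and 2 alone and against replicates 3 and 4 alone, alternatives added after seeing the data. In CNTF+5% FBS, 9 of 9739 such genes separated replicates 1 and 2 from 3 and 4, 5 of them without a name and the others Lars2, Zbtb20, mt-Rnr1 and mt-Rnr2. The 2 most abundant unnamed Entrez identifiers held 6.86 to 7.69% of the counts of a CNTF library but 5.10, 5.11, 1.08 and 2.08% in CNTF+5% FBS. In 5% FBS without CNTF replicate 3 was likewise the lowest, at 0.927% against at least 5.40% in the others, and the part of these identifiers in the results was not tested. No 2 libraries were identical, and every pair of a group differed by more than counting noise.

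**Figure D1:**
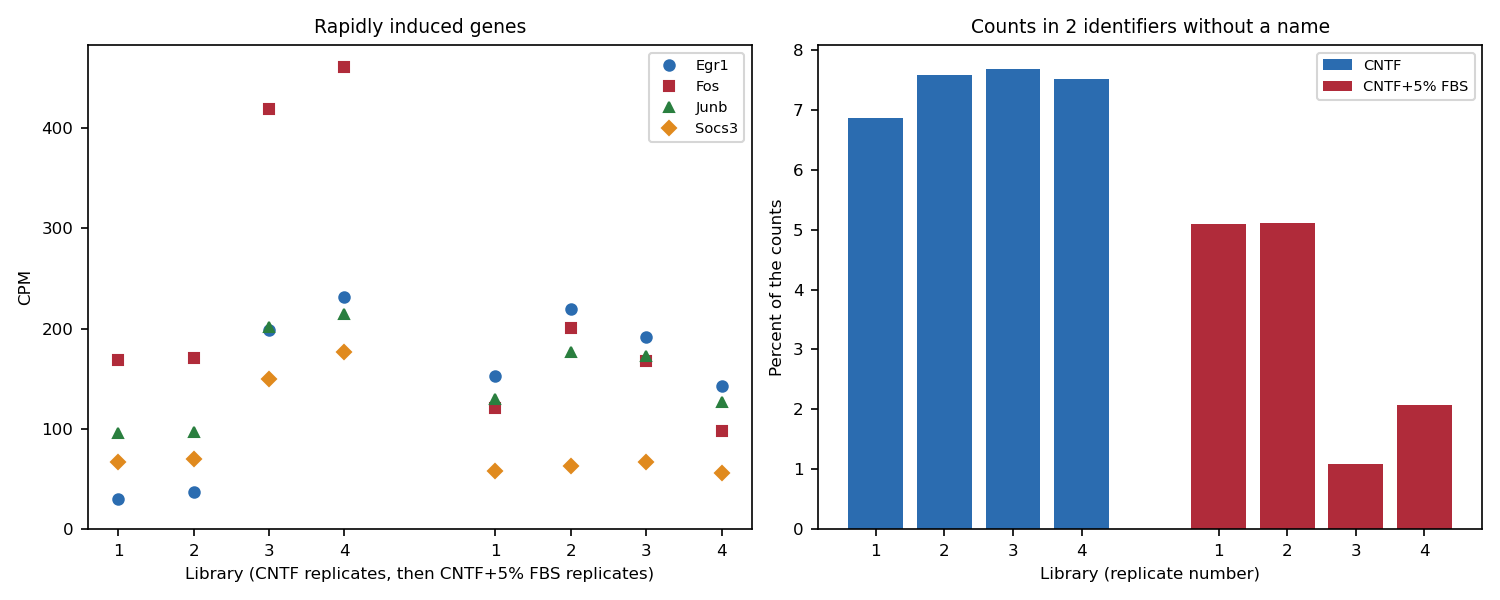
Left, levels of Egr1, Fos, Junb and Socs3 (CPM, linear axis) in each CNTF and then each CNTF+5% FBS library; right, percent of each library's counts in the 2 unnamed identifiers. All 4 genes are higher in CNTF replicates 3 and 4 than in 1 and 2, and the unnamed share is lowest in CNTF+5% FBS replicate 3, at 1.08%.

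Serum altered most of the expressed genes in the presence of CNTF. Of 15203 genes tested, 11072 were called (72.8%), 5481 higher (36.1%) and 5591 lower (36.8%) with serum, so a call alone says little about a gene. A stricter rule added after seeing the data, a call with a change of at least 2-fold, was met by 2146 higher genes (14.1%) and 1547 lower genes (10.2%), and the members of each gene list below are read against these shares. With library totals in place of TMM the split was 6326 higher and 4724 lower, 2491 and 1260 of them by at least 2-fold. The median log2FC of all genes was -0.0018.

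**Figure D2:**
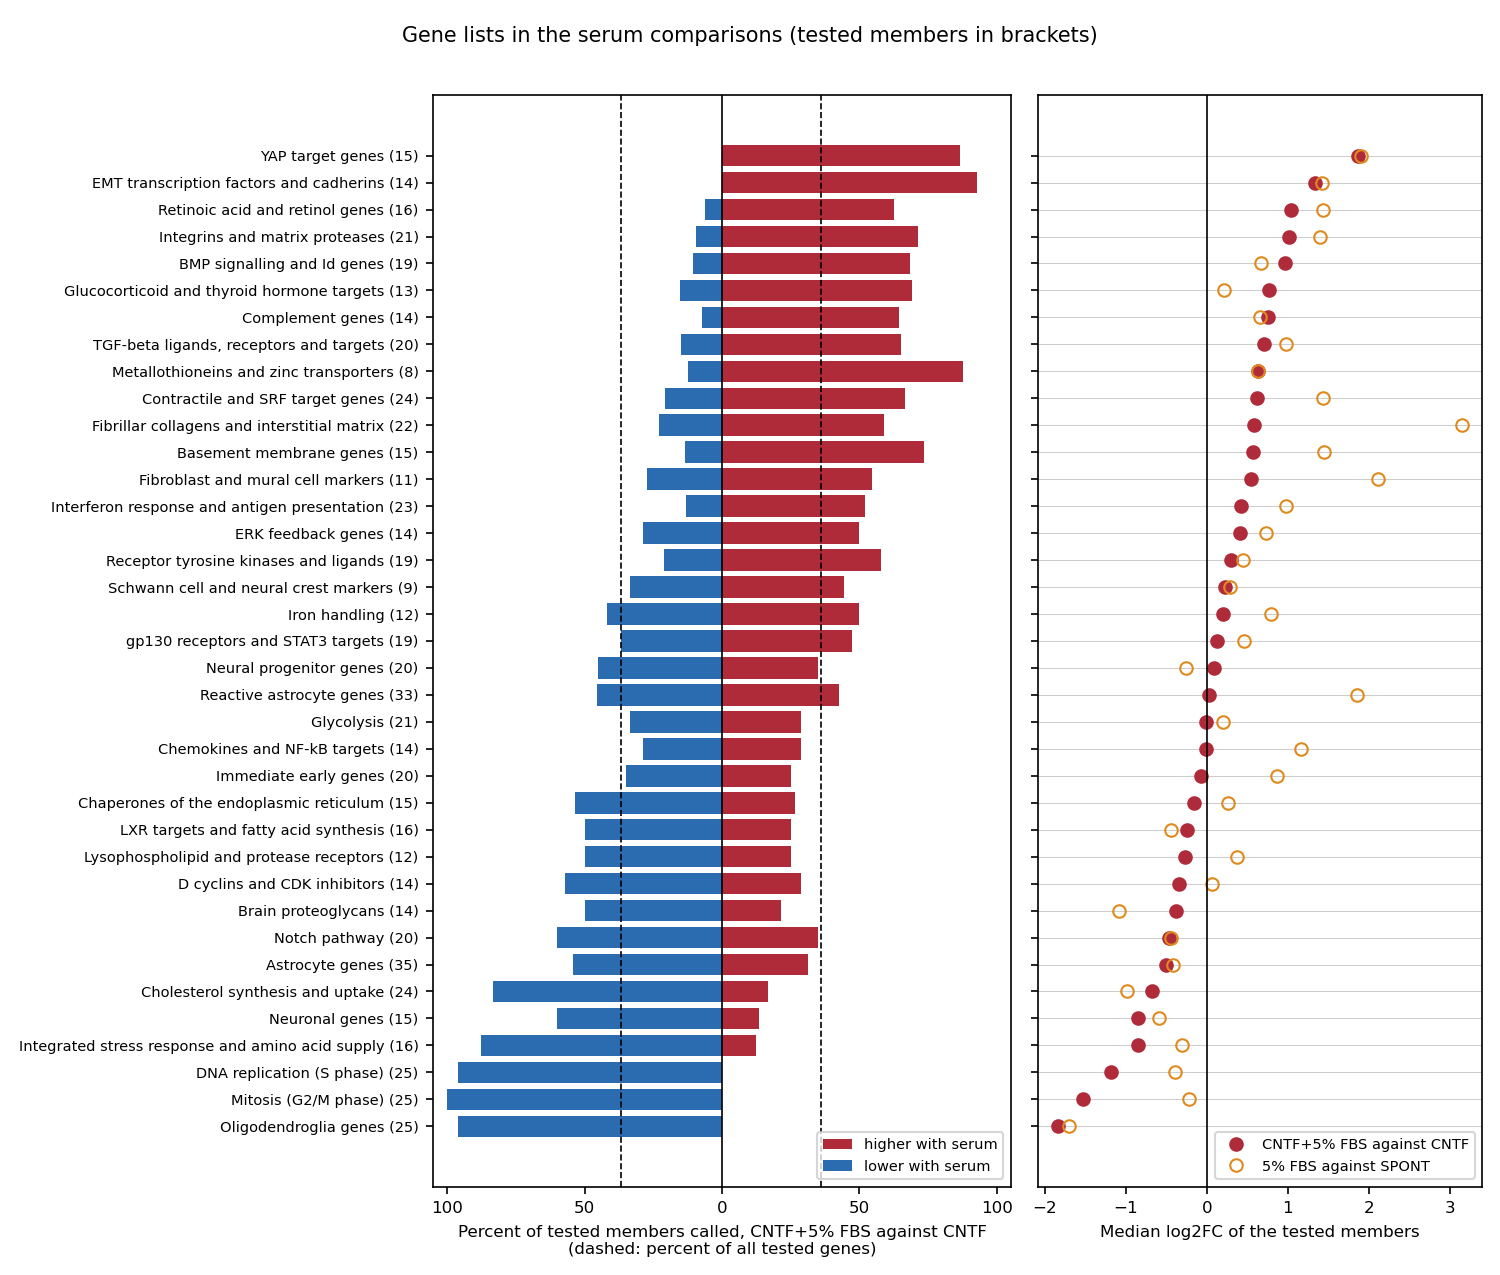
For each gene list (rows, number of tested members in brackets), the left panel gives the percent of members called higher (red) and lower (blue) in CNTF+5% FBS against CNTF, with the percent of all tested genes dashed, and the right panel gives the median log2FC with CNTF (filled) and without it (open). Mitosis, DNA replication and oligodendroglia lists lie well below 0 and the YAP list well above it with CNTF present, whereas the reactive astrocyte list lies near 0 with CNTF and near 1.85 without it.

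The receptor side of the CNTF pathway changed in both directions. Il6st, which encodes the signal-transducing subunit gp130, was 158.95, 169.9, 157.7 and 174 CPM in CNTF and 856, 907, 907 and 893 CPM in CNTF+5% FBS. Every library with serum lay above every library without, by 4.99-fold in the fit (log2FC 2.32, SE 0.0421, adjusted p = 1.03e-17). The ligand-binding subunit Cntfr fell from 37.7 ± 3.61 to 28 ± 1.86 CPM (mean ± SD, n = 4 each, log2FC -0.55), while Lifr rose from 17.2 ± 1.7 to 24.7 ± 0.747 CPM and the oncostatin M receptor Osmr from 49.1 ± 2.04 to 74.6 ± 3.92 CPM. Stat3 itself was 305 ± 11 CPM in CNTF and 343.95 ± 11.6 CPM with serum and was not called after TMM (log2FC 0.06, adjusted p = 0.178), though it passed with library totals (log2FC 0.18).

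Clcf1, a cytokine of the same family that also signals through Cntfr, rose from 1.15 ± 0.343 to 5.55 ± 1 CPM (log2FC 2.13).

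Several targets of Stat3 were lower with serum. Bcl3, an atypical member of the IκB family, was 51.5, 49.3, 43 and 49.2 CPM in CNTF and 19, 19.6, 20.9 and 18.6 CPM in CNTF+5% FBS (log2FC -1.42, SE 0.0595, adjusted p = 4.69e-13). Socs1, a feedback inhibitor of Jak kinases, fell from 10.4 ± 0.47 to 3.37 ± 0.33 CPM (log2FC -1.74). Socs3, the main feedback inhibitor of gp130, was 67.3, 69.5, 149.8 and 177 CPM in CNTF and 57.8, 62.5, 66.9 and 55.5 CPM in CNTF+5% FBS. The groups did not overlap, but CNTF replicates 1 and 2 lay just above the serum libraries and replicates 3 and 4 far above them. Its log2FC was -1.04 (SE 0.226, adjusted p = 0.000414) over all libraries, -0.29 (adjusted p = 0.00122) against CNTF replicates 1 and 2 alone and -1.55 against replicates 3 and 4 alone. Of 19 tested genes of gp130 receptors and STAT3 targets, 9 were higher and 7 lower with serum (3 and 6 by at least 2-fold). Among all genes 36.1% were higher and 36.8% lower (14.1% and 10.2% by at least 2-fold). The median log2FC was 0.125, so the list as a whole had no single direction.

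The Socs3 promoter is shown because it holds the palindrome that STAT proteins bind. From RefSeq on GRCm38.p6 (chr11:117969477-117969546, minus strand), the stretch from 180 to 111 bases before the start site reads as follows, 5′ to 3′ on the strand of the gene, with the match to TTCNNNGAA in capitals, 154 bases before the start.
Socs3: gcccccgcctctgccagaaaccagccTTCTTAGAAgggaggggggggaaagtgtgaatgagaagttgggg
Such a match was found within 300 bases around the start in 2 of 18 promoters of this list (11.1%), Socs3 and Cish, and in 9.55% of the 27025 genes with a window, a gene with several start sites counting once. Here and below a match describes the sequence and was not tested for binding.

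Reactive astrocyte genes, those that astrocytes raise after injury, split into opposite directions. Of 33 tested, 14 were higher and 15 lower with serum (9 and 10 by at least 2-fold) and the median log2FC was 0.0272. The filament gene Gfap was 21571, 22165, 22548 and 22050.4 CPM in CNTF and 14527, 13788, 15567 and 14860.2 CPM in CNTF+5% FBS. All serum libraries lay below all CNTF libraries and Gfap fell 1.63-fold (log2FC -0.70, SE 0.0342, adjusted p = 3.4e-12). The filament genes Vim and Nes also fell, from 5771 ± 195 to 3338 ± 149.8 CPM and from 467 ± 27.9 to 211 ± 18.2 CPM.

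Among secreted reactive genes, the protease inhibitor Serpina3n was 607, 629, 625 and 641 CPM in CNTF and 265, 243, 276 and 260.2 CPM in CNTF+5% FBS (log2FC -1.37). The siderophore-binding protein Lcn2 was 61.5, 58.9, 62.2 and 58.5 CPM in CNTF and 27.8, 25.3, 31.8 and 28.7 CPM with serum (log2FC -1.20). The small heat shock protein Hspb1 was 202, 191, 219 and 199.7 CPM in CNTF and 41.4, 37.6, 46 and 40.8 CPM with serum and had the steepest fall of the list, 5.31-fold (log2FC -2.41, SE 0.0572, adjusted p = 2.5e-16). In each of these genes the groups were clearly apart. S1pr3, a receptor for sphingosine 1-phosphate, fell from 727 ± 36.5 to 230.0 ± 10.3 CPM, and the guanylate-binding protein Gbp2 from 88.7 ± 3.86 to 34.9 ± 0.805 CPM.

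Other reactive genes went up in the same libraries. Complement component C3 was 515, 495, 501 and 507 CPM in CNTF and 1689.3, 2197, 1926 and 1821 CPM in CNTF+5% FBS, a rise of 3.5-fold (log2FC 1.81, SE 0.066, adjusted p = 7.33e-14). The copper-carrying ferroxidase Cp was 274, 278, 282 and 285 CPM in CNTF and 1043, 1313, 1289 and 1199 CPM with serum (log2FC 2.001). Serum libraries were higher throughout for both. Fbln5, a protein of elastic fibres, rose from 6.82 ± 0.525 to 129.5 ± 11.6 CPM, the metalloreductase Steap4 from 34.8 ± 1.49 to 112 ± 9.86 CPM and the chemokine Cxcl10 from 1.41 ± 0.261 to 6.72 ± 0.347 CPM. With genes of low count left out by a stricter filter, the median of the list became -0.213, so its sign was not stable.

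**Figure D3:**
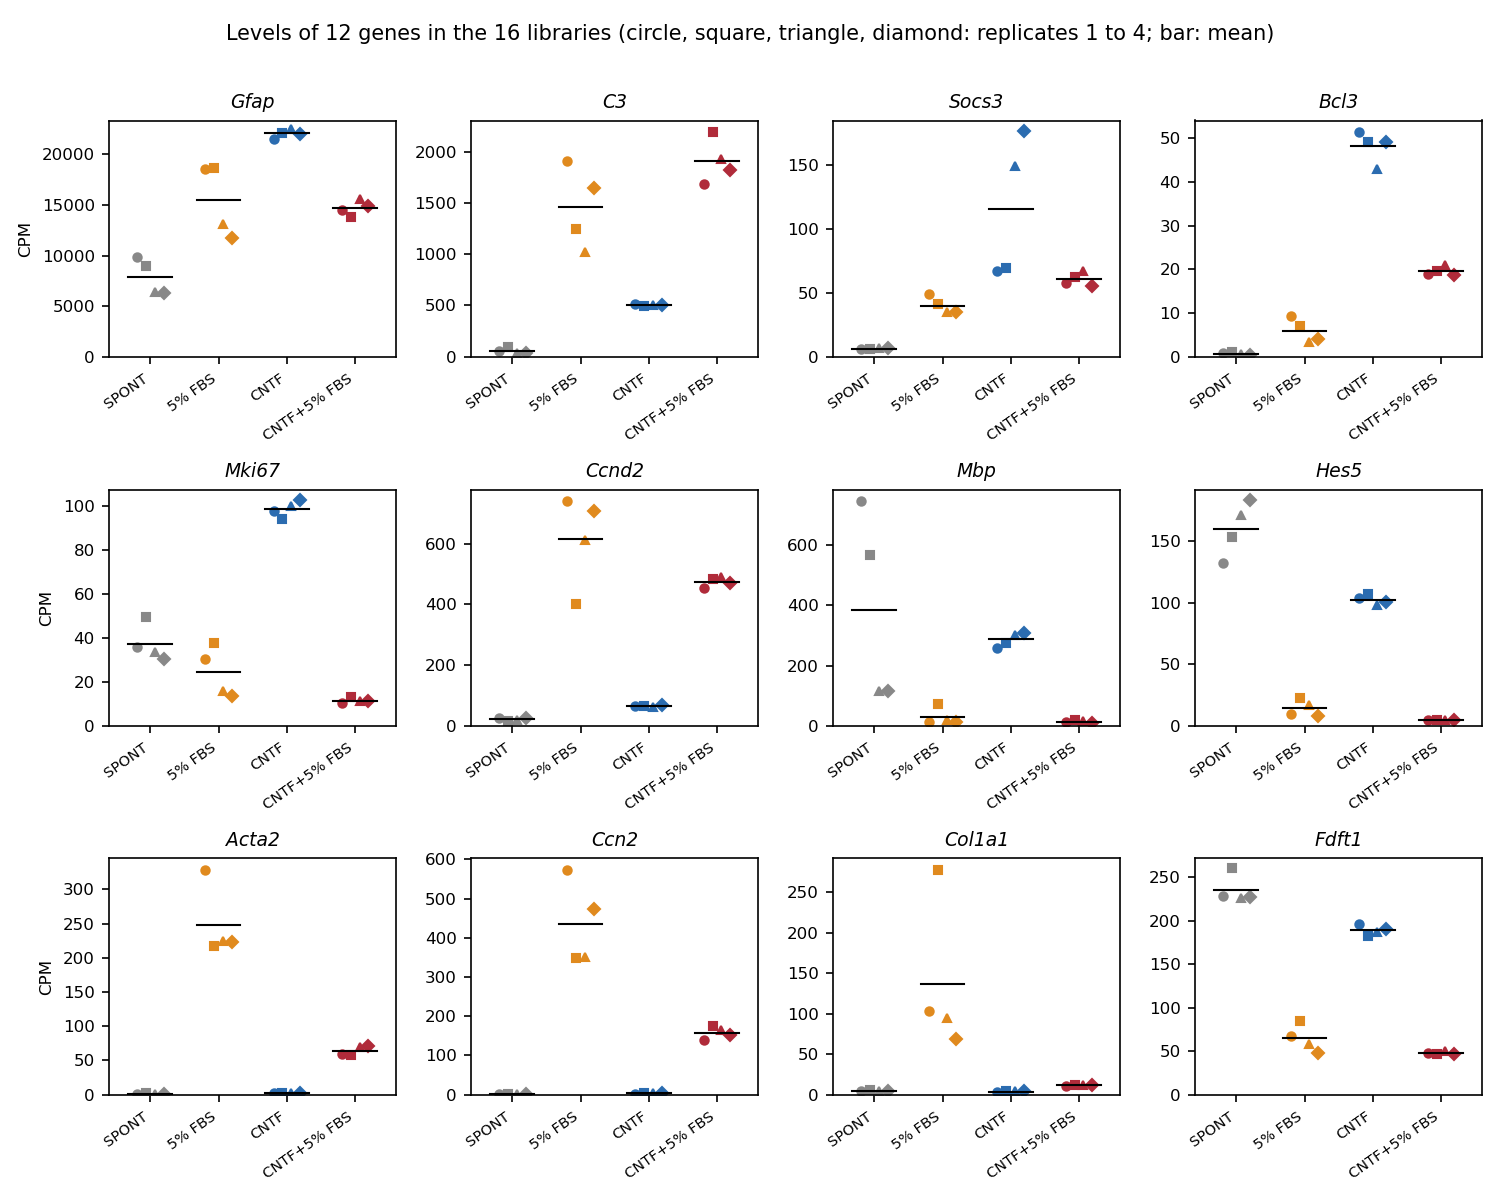
Levels of 12 genes in the 16 libraries (CPM, linear vertical axes that differ between panels), with SPONT, 5% FBS, CNTF and CNTF+5% FBS along the horizontal axis, a symbol for each replicate and a bar at the mean. Mki67 is highest in CNTF and lowest in CNTF+5% FBS, and Acta2, Ccn2 and Col1a1 are highest in 5% FBS.

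Genes of cell division fell together. All 25 tested genes of mitosis were lower with serum, 21 of them by at least 2-fold, with a median log2FC of -1.53, and none was higher. Mki67, the proliferation marker that coats chromosomes in mitosis, was 97.7, 93.9, 100.2 and 103 CPM in CNTF and 10.4, 13.1, 11 and 11 CPM in CNTF+5% FBS. It fell 9.35-fold (log2FC -3.23, SE 0.0695, adjusted p = 8.1e-17), and no serum library came near a CNTF library. The conjugating enzyme Ube2c, a partner of the anaphase-promoting complex, was 120.2, 117, 96.8 and 104.5 CPM in CNTF and 33.4, 26.1, 28.3 and 29.4 CPM with serum (log2FC -2.02). Cdc20, which activates that complex, was 149, 144, 138 and 136 CPM in CNTF and 50.01, 36.8, 40.5 and 44.5 CPM with serum (log2FC -1.84). The smallest fall of the list was that of Prc1, a protein of the spindle midzone, from 53.8 ± 3.29 to 32.2 ± 3.34 CPM (log2FC -0.86).

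DNA replication genes fell too. Of 25 tested, 24 were lower (17 by at least 2-fold), none was higher and the median log2FC was -1.18. Mcm5, a subunit of the replicative helicase, was 107, 105.2, 112 and 109.6 CPM in CNTF and 41.6, 31.9, 36.1 and 39.2 CPM in CNTF+5% FBS (log2FC -1.66, SE 0.063, adjusted p = 1.23e-13). The helicase cofactor Cdc45 fell from 29.7 ± 0.731 to 7.68 ± 0.916 CPM and the licensing factor Cdt1 from 32.2 ± 0.751 to 10.9 ± 1.85 CPM. The exception was E2f1, which encodes a transcription factor of this programme and stood at 6.94 ± 0.395 and 8.55 ± 1.13 CPM (log2FC 0.19, adjusted p = 0.0668). With library totals in place of TMM it was called higher and 22 members lower.

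Promoters of these genes are printed because their letters are shared more often than in other genes. Many mitotic genes carry the cell cycle homology region (CHR, TTTGAA or TTCGAA on either strand), to which the DREAM and MuvB complexes bind, and replication genes carry sites of E2F (TTTCCCGC or TTTGGCGC on either strand). The following windows come from RefSeq on GRCm38.p6 and run 5′ to 3′ on the strand of the gene, with the match in capitals: Mki67 from 150 to 61 bases before its start site (chr7:135716440-135716529, minus strand), Cdc20 from 80 to 1 bases before (chr4:118437344-118437423, minus strand), Ube2c from 80 to 1 bases before (chr2:164769849-164769928, plus strand) and Mcm5 from 180 to 121 bases before (chr8:75109329-75109388, plus strand).
Mki67: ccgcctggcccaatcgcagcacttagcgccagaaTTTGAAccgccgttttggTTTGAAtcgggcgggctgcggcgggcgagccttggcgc
Cdc20: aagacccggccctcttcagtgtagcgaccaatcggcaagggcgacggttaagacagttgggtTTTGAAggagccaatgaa
Ube2c: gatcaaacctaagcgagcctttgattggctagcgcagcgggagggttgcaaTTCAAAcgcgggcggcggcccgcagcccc
Mcm5: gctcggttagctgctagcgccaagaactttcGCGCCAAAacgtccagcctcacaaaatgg
The first 3 hold a CHR and Mcm5 an E2F match, in Ube2c and Mcm5 on the opposite strand. A CHR lay within the 300-base window in 17 of 21 mitosis promoters (81%) against 21.7% of all 27025 genes, and a CCAAT box in 18 (85.7%) against 41.1%. An E2F match lay in 7 of 20 replication promoters (35%) against 1.80% of all. Genes without a window in the RefSeq table were left out of these shares.

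Regulators at the entry to the cell cycle did not move as a group. Of 14 tested D cyclins, CDKs and CDK inhibitors, 4 were higher and 8 lower (1 and 3 by at least 2-fold). Ccnd2, a D cyclin, was 64.6, 64.2, 61 and 67.9 CPM in CNTF and 455, 485, 488.3 and 470.3 CPM in CNTF+5% FBS, 6.81-fold higher with serum (log2FC 2.77, SE 0.0446, adjusted p = 2.7e-18). Cdkn1c, which encodes the inhibitor p57, was 69.98, 64.2, 67.3 and 66.2 CPM in CNTF and 6.47, 6.71, 6.38 and 5.89 CPM with serum, 11.4-fold lower (log2FC -3.51). Other members of the list went both ways. The D cyclins Ccnd1 and Ccnd3 fell (log2FC -0.60 and -0.59). The inhibitors Cdkn1b and Cdkn2c rose (log2FC 0.76 and 0.26), while the inhibitors Cdkn1a, Cdkn2b and Cdkn2d fell (log2FC -0.46, -0.55 and -1.14). Cdk4 fell from 635 ± 31 to 312 ± 15.6 CPM, and the retinoblastoma gene Rb1 rose from 106 ± 8.36 to 210.2 ± 5.07 CPM.

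Oligodendroglial genes fell together. Of 25 tested, 24 were lower with serum (19 by at least 2-fold), none was higher, and the median log2FC was -1.84. Mbp, a protein of compact myelin, was 259.7, 276, 303 and 308 CPM in CNTF and 11.3, 17.7, 13.7 and 9.12 CPM in CNTF+5% FBS, 23.8-fold lower (log2FC -4.58, SE 0.146, adjusted p = 1.21e-14). Sox10, the transcription factor of the lineage, was 57.7, 55.1, 55.2 and 64.6 CPM in CNTF and 1.38, 2.17, 1.67 and 1.7 CPM with serum, 36-fold lower (log2FC -5.17). Opalin, a membrane protein of myelin sheaths, was 24.4, 22.3, 25.7 and 25.7 CPM in CNTF and 0.989, 0.404, 0.788 and 0.776 CPM with serum (log2FC -5.18). These 3 were among the 10 largest falls named by rule, and the groups were far apart in each.

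The fall was uneven along the lineage. The myelin regulator Myrf fell from 33.1 ± 2.67 to 4.45 ± 0.355 CPM and Olig2, a factor of progenitors and mature cells, from 707 ± 22.2 to 252 ± 14.1 CPM. Pdgfra, the receptor of oligodendrocyte progenitors, fell little: it was 166, 177, 160.0 and 181 CPM in CNTF and 145, 157.8, 147 and 151 CPM in CNTF+5% FBS (log2FC -0.299, SE 0.0477, adjusted p = 1.86e-05), and its call was lost when all 16 or all 32 libraries were fitted together. Cspg4, another progenitor gene, fell from 115 ± 3.83 to 33.5 ± 3.49 CPM. Of the list, Ermn alone was not called, at 0.226 ± 0.0672 and 0.212 ± 0.162 CPM.

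Notch genes fell in part. Notch receptors are activated by ligands on neighbouring cells and, through Rbpj, switch on Hes and Hey repressors that hold progenitors undifferentiated. Of 20 tested, 7 were higher and 12 lower (1 and 8 by at least 2-fold), with a median log2FC of -0.469. Among targets, Hes5 was 103.8, 107, 98.2 and 100.8 CPM in CNTF and 4.26, 4.55, 4.83 and 4.45 CPM in CNTF+5% FBS, 24.5-fold lower (log2FC -4.61, SE 0.0543, adjusted p = 1.1e-19). Hes1 fell from 47 ± 4.29 to 22.3 ± 1.42 CPM, and Nrarp, a target that restrains the pathway, from 97.9 ± 5.05 to 17.5 ± 0.665 CPM, while Hey1 rose from 54.2 ± 1.94 to 100.6 ± 3.9 CPM.

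Delta ligands and Fringe modifiers fell and Notch receptors rose. The ligand Dll1 was 106, 109.1, 124 and 142 CPM in CNTF and 19, 19.9, 20.3 and 19.5 CPM in CNTF+5% FBS (log2FC -2.73), and Dll3 fell from 334 ± 24.4 to 39 ± 4.15 CPM. Mfng, a glycosyltransferase that modifies Notch, was 11.6, 11.6, 11.4 and 11.4 CPM in CNTF and 0.494, 0.404, 0.493 and 0.468 CPM with serum, 26.7-fold lower (log2FC -4.74). The receptor Notch2 rose from 62.7 ± 2.74 to 252 ± 32.6 CPM, Notch1 from 200.2 ± 22.1 to 262 ± 31.1 CPM and Notch3 from 39.8 ± 3.59 to 62.5 ± 5.45 CPM. The Hes5 promoter is shown for the element that Rbpj binds (GTGGGAA on either strand), which occurs 226 and 83 bases before the start site. The stretch from 110 to 51 bases before the start (RefSeq, GRCm38.p6, chr4:154960813-154960872, plus strand) reads as follows, with the nearer match in capitals.
Hes5: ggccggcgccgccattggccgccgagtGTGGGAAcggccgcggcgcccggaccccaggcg
The element was found in 3 of 16 promoters of the list (18.8%), those of Hes5, Hey2 and Lfng, and in 7.25% of all promoters. Hey2 fell from 12.4 ± 0.518 to 10.5 ± 0.427 CPM and Lfng from 123 ± 4.21 to 88.3 ± 3.37 CPM.

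Neuronal genes mostly fell. Of 15 tested, 9 were lower and 2 higher (4 and 0 by at least 2-fold). Dcx, a microtubule protein of young neurons, was 14.5, 16.7, 12.1 and 13.2 CPM in CNTF and 0.305, 0.632, 0.535 and 0.482 CPM in CNTF+5% FBS, 30.9-fold lower (log2FC -4.95, SE 0.154, adjusted p = 7.88e-15). The RNA-binding protein Elavl3 fell from 53 ± 4.56 to 6.76 ± 0.294 CPM, and the growth cone protein Gap43 from 151 ± 6.2 to 50.4 ± 3.59 CPM. Neural progenitor genes went both ways. Of 20 tested, 7 were higher and 9 lower (2 and 6 by at least 2-fold), with a median log2FC of 0.0833. The shares of all genes were 36.1% and 36.8% (14.1% and 10.2% by at least 2-fold), so only the larger falls stood out from them. Hes5, Hes1 and Nes, given above, were among those that fell. Sox2, a factor of neural progenitors, was 724 ± 21.4 and 789 ± 18.9 CPM and was not called (log2FC 0.010, adjusted p = 0.8). Igfbp2, a secreted binding protein of insulin-like growth factors, was 132, 126, 133 and 129 CPM in CNTF and 614, 664, 719 and 695 CPM with serum (log2FC 2.25).

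Genes of healthy astrocytes also divided. Of 35 tested, 11 were higher and 19 lower (6 and 12 by at least 2-fold), with a median log2FC of -0.506. Slc6a11, a GABA transporter, was 194.5, 204, 181 and 200.4 CPM in CNTF and 27.9, 22.6, 28.6 and 27 CPM in CNTF+5% FBS, 7.96-fold lower (log2FC -2.99, SE 0.0599). The water channel Aqp4 was 113, 138, 116 and 131 CPM in CNTF and 56.7, 47.2, 49.9 and 55.6 CPM with serum (log2FC -1.36). S100b, a calcium-binding protein, was 70.5, 68.7, 78.2 and 71.6 CPM in CNTF and 26.4, 24, 26.7 and 26.3 CPM with serum (log2FC -1.60). No library of a group reached the range of the other in these genes. Apoe, the lipid carrier of astrocytes, fell from 12595 ± 956 to 4304 ± 324 CPM.

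Several transporters and channels of the same list rose. Slc4a4, a sodium bicarbonate cotransporter, was 33, 36.6, 38.2 and 39.8 CPM in CNTF and 119.5, 125, 113 and 110.8 CPM in CNTF+5% FBS (log2FC 1.55, SE 0.0627). The glutamate transporter Slc1a3 rose from 361 ± 33.4 to 958 ± 38.5 CPM, the potassium channel Kcnj10 from 565 ± 16 to 1501 ± 49.5 CPM and the gap junction gene Gja1 from 355 ± 24.5 to 857 ± 31 CPM. Slc1a2, the other main glutamate transporter, was 62.4, 62.7, 57.8 and 65.2 CPM in CNTF and 71.5, 73, 69.1 and 65.8 CPM with serum and was called only with library totals (log2FC 0.06 after TMM, 0.17 with totals). Sox9 and Nfia, factors that specify astrocytes, were not called, at 496 ± 33.9 and 486 ± 9.21 CPM and at 397 ± 11.2 and 457 ± 21.3 CPM.

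Smooth muscle genes rose from very low levels. Of 24 tested contractile and SRF target genes, 16 were higher and 5 lower (10 and 1 by at least 2-fold), with a median log2FC of 0.622, and with library totals 17 were higher and 3 lower. Acta2, the actin of smooth muscle and myofibroblasts, was 2.16, 2.14, 1.97 and 2.79 CPM in CNTF and 59.5, 58, 68.9 and 70.7 CPM in CNTF+5% FBS, 26.1-fold higher (log2FC 4.71, SE 0.0881, adjusted p = 1.51e-17). Tagln, an actin-binding protein of smooth muscle, was 1.92, 2.26, 1.18 and 1.45 CPM in CNTF and 19.95, 19, 19.96 and 25.2 CPM with serum (log2FC 3.50). The calponin Cnn1 was 1.2, 1.75, 1.28 and 1.45 CPM in CNTF and 20.5, 19.97, 20.2 and 24.9 CPM with serum (log2FC 3.80). CNTF libraries held hardly any of these 3 and serum libraries held them throughout. The non-muscle and cytoskeletal members Tagln2, Flna and Actb fell, Tagln2 from 143 ± 9.15 to 34.9 ± 2.9 CPM, and Srf itself stood at 59 ± 2.16 and 64 ± 2.53 CPM (log2FC 0.004, adjusted p = 0.932). A CArG box, the element that SRF binds, was found in 5 of 21 promoters of the list (23.8%) and in 1.81% of all promoters. The 5 were Actg1, Cnn2, Myl9, Vcl and Srf, so Acta2, Tagln and Cnn1 were not among them. Of these 5, Actg1 fell (log2FC -0.23), Cnn2 rose (log2FC 0.70) and Srf was not called.

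Targets of YAP, the coactivator restrained by the Hippo kinases, rose more evenly. Of 15 tested, 13 were higher, each by at least 2-fold, and none was lower, with a median log2FC of 1.87. The matrix protein Ccn2 was 2.73, 3.44, 4.43 and 4.75 CPM in CNTF and 138, 174, 165 and 153 CPM in CNTF+5% FBS, 38.4-fold higher (log2FC 5.26, SE 0.12, adjusted p = 1.52e-16). Its relative Ccn1 was 40.6, 39, 59.2 and 64.5 CPM in CNTF and 236, 315, 290.0 and 236 CPM with serum, 4.91-fold higher (log2FC 2.29). The Hippo kinase gene Lats2, itself a target, rose from 64.3 ± 5.83 to 221 ± 8.31 CPM, and the transmembrane protein Crim1 from 10.2 ± 1.24 to 132 ± 11.1 CPM. Amotl2 and Arhgef17 were not called, at 204 ± 9.45 and 243 ± 21.4 CPM and at 54 ± 3.3 and 64.1 ± 4.35 CPM.

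Transcription factors and cadherins of the epithelial to mesenchymal transition mostly rose. Of 14 tested, 13 were higher (9 by at least 2-fold) and none lower, with a median log2FC of 1.33. Snai1 was 0.909, 1.21, 1.03 and 0.98 CPM in CNTF and 4.45, 5.77, 6.77 and 6.21 CPM in CNTF+5% FBS (log2FC 2.38, SE 0.145), and Snai2 rose from 0.131 ± 0.0697 to 1.25 ± 0.261 CPM. Twist1 rose from 13.3 ± 0.976 to 37.7 ± 1.41 CPM and N-cadherin, Cdh2, from 138 ± 11 to 424 ± 27.3 CPM. The E-cadherin gene Cdh1 was too low to be tested.

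Of 20 TGF-beta genes, 13 were higher and 3 lower (5 and 0 by at least 2-fold). Of 19 BMP genes 13 were higher and 2 lower (8 and 0 by at least 2-fold). The ligands Tgfb1 and Tgfb2 fell, from 4.87 ± 0.263 to 2.66 ± 0.514 CPM and from 79.7 ± 3.49 to 49.3 ± 0.942 CPM. The receptors Tgfbr2 and Bmpr2 rose, from 25.3 ± 2.76 to 96.7 ± 4.55 CPM and from 10.5 ± 1.3 to 40.3 ± 3.11 CPM, while the receptor Bmpr1b fell from 22.6 ± 1.09 to 20.3 ± 0.247 CPM (log2FC -0.27). The ligand Bmp6 rose from 2.32 ± 0.383 to 56 ± 2.68 CPM, the inhibitory Smad6 from 3.05 ± 0.222 to 27 ± 1.38 CPM and the BMP antagonist Nog from 5.87 ± 0.375 to 29.4 ± 1.81 CPM. Id1, a common target of BMP, rose from 80.6 ± 4.49 to 126 ± 4.05 CPM, while Id3 was 139, 141, 189 and 174.6 CPM in CNTF and 177, 171.7, 186.8 and 178.7 CPM in CNTF+5% FBS, with overlapping groups and no call (log2FC 0.03). Against CNTF replicates 1 and 2 alone Id3 was called higher (log2FC 0.24).

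Genes of the fibrillar matrix moved apart from each other. Of 22 tested, 13 were higher and 5 lower (9 and 4 by at least 2-fold), with a median log2FC of 0.586. The thrombospondins were opposite: Thbs1 was 0.615, 0.573, 0.38 and 0.261 CPM in CNTF and 52.7, 65.7, 59.5 and 61.5 CPM in CNTF+5% FBS, 118-fold higher (log2FC 6.88, SE 0.133). Thbs2 was 32.7, 38.1, 33.5 and 31.5 CPM in CNTF and 1.34, 2.02, 1.53 and 1.54 CPM with serum, 22.7-fold lower (log2FC -4.50, SE 0.104). The groups were far apart for both.

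Among collagens, Col1a1, the main chain of type I collagen, was 2.89, 4.16, 4.22 and 3.95 CPM in CNTF and 10.6, 12.3, 12.4 and 11.8 CPM in CNTF+5% FBS (log2FC 1.52). Col5a1 rose from 34.1 ± 2.76 to 217 ± 20.3 CPM. Col6a2, a chain of the beaded type VI collagen, was 142, 138, 126 and 142 CPM in CNTF and 29.4, 34.1, 33.4 and 32.9 CPM with serum, 4.56-fold lower (log2FC -2.19), and its partner Col6a1 fell from 105.4 ± 8.81 to 43.2 ± 2.26 CPM. Loxl2, an enzyme that crosslinks collagen, was 3.27, 3.09, 2.86 and 4.15 CPM in CNTF and 29.4, 31, 29.4 and 31.3 CPM with serum, 8.36-fold higher (log2FC 3.06). Fibronectin, Fn1, was 202, 216, 202 and 213 CPM in CNTF and 235, 312, 261 and 266 CPM with serum, a small rise (log2FC 0.25, SE 0.0678, adjusted p = 0.00244) that was not called when 16 or 32 libraries were fitted together or when only 2 CNTF libraries were used.

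Most receptors for matrix rose. Of 21 tested integrins and matrix proteases, 15 were higher and 2 lower (11 and 1 by at least 2-fold), with a median log2FC of 1.02. The collagen receptor Itga1 rose from 4.44 ± 0.618 to 45.5 ± 2.86 CPM, the laminin receptor Itga3 from 14.5 ± 0.625 to 117 ± 13.2 CPM and Itgav from 40.1 ± 3.42 to 301 ± 21.5 CPM. The protease inhibitor Timp1, a member that fell, went from 13 ± 1.3 to 4.85 ± 0.244 CPM. Of 15 basement membrane genes 11 were higher and 2 lower (5 and 2 by at least 2-fold), with nidogen 2, Nid2, rising from 71.6 ± 3.01 to 371 ± 39.9 CPM. Of 14 brain proteoglycan genes 3 were higher and 7 lower (2 and 4 by at least 2-fold). Ncan fell from 465 ± 28.5 to 188.4 ± 4.23 CPM and the hyaluronan synthase Has2 from 7.28 ± 0.235 to 1.2 ± 0.319 CPM.

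Most genes of cholesterol synthesis, which the factor SREBP2 drives when sterol is scarce, fell. Of 24 tested, 20 were lower and 4 higher (9 and 1 by at least 2-fold), with a median log2FC of -0.673. Fdft1, the squalene synthase, was 196, 182.7, 187.2 and 190.1 CPM in CNTF and 48.1, 46.9, 50.1 and 47.2 CPM in CNTF+5% FBS, 4.25-fold lower (log2FC -2.09, SE 0.0435, adjusted p = 5.15e-17). Fdps, which makes farnesyl pyrophosphate, was 118, 106, 115 and 113 CPM in CNTF and 28.9, 27.2, 28.2 and 28.1 CPM with serum (log2FC -2.12). Serum libraries formed a lower, separate range in both.

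The 4 enzymes and carriers that rose were Sqle, Sc5d, Stard4 and Hsd17b7, named here after their values were seen. Hsd17b7, an enzyme of sterol and steroid reduction, was 14, 15.7, 13.9 and 15.4 CPM in CNTF and 46.6, 44.3, 43.4 and 47.2 CPM with serum (log2FC 1.51). Abca1, a cholesterol exporter that LXR receptors induce, rose from 58.6 ± 5.56 to 212 ± 28.4 CPM. The promoter of Hmgcs1, which fell from 381 ± 9.56 to 255 ± 3.81 CPM, is shown for the sterol response element (TCACNCCAC on either strand), 137 bases before the start site. The 80 bases around it (RefSeq, GRCm38.p6, chr13:119690171-119690250, plus strand) read as follows, with the element in capitals.
Hmgcs1: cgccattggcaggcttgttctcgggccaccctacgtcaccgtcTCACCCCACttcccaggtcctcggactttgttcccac
It was the only match among 17 promoters of the list (5.88% against 1.44% of all), whereas a CCAAT box was present in 16 of 17 (94.1% against 41.1%).

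Other lists were built around further constituents of serum. Of 16 tested retinoic acid and retinol genes, 10 were higher and 1 lower (8 and 1 by at least 2-fold), with a median log2FC of 1.04. The expansion medium held a supplement without vitamin A, per the labels. Crabp1, a binding protein of retinoic acid, was 0.267, 0.425, 0.398 and 0.261 CPM in CNTF and 10.1, 10.8, 10.3 and 11.6 CPM in CNTF+5% FBS, 29.5-fold higher (log2FC 4.88, SE 0.141). The receptor Rarb, a direct target of retinoic acid, rose from 2.89 ± 0.24 to 16.9 ± 0.605 CPM and the transglutaminase Tgm2 from 39.7 ± 3.07 to 329.8 ± 21.5 CPM. Cyp26b1, which degrades retinoic acid, was not called, at 1.22, 0.933, 0.85 and 0.865 CPM in CNTF and 0.873, 0.897, 0.985 and 0.762 CPM with serum, with overlapping groups.

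Of 8 metallothionein and zinc genes 7 were higher and 1 lower (2 and 0 by at least 2-fold). Mt2 rose from 642 ± 25.7 to 1592 ± 33.7 CPM and the zinc exporter Slc30a1 from 27.3 ± 1.25 to 89.7 ± 3.87 CPM. Iron genes divided, 6 higher and 5 lower of 12 (2 and 3 by at least 2-fold). Transferrin, Trf, rose from 112 ± 2.98 to 416 ± 18.2 CPM and the ferritin chain Ftl1 fell from 169 ± 8.25 to 73.9 ± 7.14 CPM. Of 13 glucocorticoid and thyroid hormone targets 9 were higher and 2 lower (5 and 1 by at least 2-fold). Klf9, which both hormones induce, rose from 7.49 ± 0.655 to 61.9 ± 4.68 CPM, while Fkbp5, a classical glucocorticoid target, fell from 43.3 ± 1.89 to 19.7 ± 1.28 CPM.

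Receptors and feedback genes of growth factors were mixed. Of 19 receptor tyrosine kinases and ligands 11 were higher and 4 lower (5 and 0 by at least 2-fold), and Pdgfrb rose from 0.231 ± 0.119 to 6.78 ± 1.37 CPM. Of 14 ERK feedback genes 7 were higher and 4 lower (6 and 2 by at least 2-fold), with the phosphatase Dusp6 rising from 4.98 ± 1.68 to 27.7 ± 2.34 CPM. Lpar1, a receptor of lysophosphatidic acid, fell from 108 ± 3.86 to 16.9 ± 1.33 CPM.

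Immediate early genes, which serum induces within minutes in resting cells, were measured here after 4 days. Of 20 tested, 5 were higher and 7 lower (4 and 4 by at least 2-fold). The median log2FC was -0.07, and it was 0.124 against CNTF replicates 1 and 2 alone and -0.31 against replicates 3 and 4 alone. Fos was 168.4, 170.7, 419 and 461 CPM in CNTF and 120.9, 201, 168.1 and 98.1 CPM in CNTF+5% FBS, with overlapping groups. Its log2FC was -1.16 (adjusted p = 0.00114) over all libraries, and -0.32 (adjusted p = 0.156) against CNTF replicates 1 and 2 alone. Egr2 was 2.28, 2.09, 11 and 8.33 CPM in CNTF and 12.6, 14.6, 13.8 and 11.8 CPM with serum (log2FC 1.06, adjusted p = 0.00981). Against replicates 1 and 2 alone its log2FC was 2.47, and against replicates 3 and 4 alone its log2FC was 0.33 and not called (adjusted p = 0.0276). Leaving out any 1 of CNTF replicates 1 and 2 or CNTF+5% FBS replicates 1, 2 and 3 also ended the call of Egr2. Myc was 138, 139.9, 183.3 and 181 CPM in CNTF and 62.1, 56.6, 59.2 and 55.5 CPM with serum and fell beyond that spread (log2FC -1.57, SE 0.0839).

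Genes of amino acid supply and the integrated stress response were mostly lower, 14 of 16 tested, with 2 higher (4 and 0 by at least 2-fold). Their median log2FC was -0.854. The mitochondrial folate enzyme Mthfd2 fell from 29.6 ± 2.93 to 10.5 ± 0.797 CPM, the serine synthesis enzyme Phgdh from 655 ± 35.1 to 356 ± 10.3 CPM and the amino acid transporter Slc7a5 from 271 ± 8.84 to 126 ± 5.38 CPM. Of 15 chaperones of the endoplasmic reticulum 4 were higher and 8 lower (1 and 1 by at least 2-fold). In glycolysis 6 were higher and 7 lower of 21 (5 and 0 by at least 2-fold), no more often than among all genes (36.1% and 36.8%) in either direction by call. The regulator Pfkfb3 rose from 82 ± 4.94 to 432 ± 27.7 CPM and the glucose transporter Slc2a1 from 58.4 ± 2.78 to 236 ± 5.32 CPM.

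Of 14 tested complement genes 9 were higher and 1 lower (5 and 0 by at least 2-fold). The proteases C1ra and C1s1 rose from 2.07 ± 0.48 to 25.8 ± 1.78 CPM and from 2.3 ± 0.319 to 21.9 ± 2.14 CPM. Interferon and antigen presentation genes were higher in 12 and lower in 3 of 23 (6 and 1 by at least 2-fold). B2m, the light chain of class I molecules, rose from 144 ± 5.39 to 343.7 ± 15.3 CPM. Chemokines and NF-kB targets had 4 higher and 4 lower of 14 (3 and 1 by at least 2-fold), with the inhibitor Nfkbia falling from 70.5 ± 5.19 to 43.5 ± 8.86 CPM.

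The largest changes were reached by genes nearly absent from CNTF. The aldo-keto reductase Akr1c14 was 0.147, 0.229, 0.0724 and 0.163 CPM in CNTF and 107, 100.7, 109.7 and 113 CPM in CNTF+5% FBS, 636-fold higher (log2FC 9.31, SE 0.102, adjusted p = 4.71e-20). The secreted protein C1qtnf3 was 0.307, 0.295, 0.452 and 0.392 CPM in CNTF and 82.6, 93.7, 94.6 and 97.6 CPM with serum, 237-fold higher. Gria1, a subunit of AMPA glutamate receptors, was 0.187, 0, 0.181 and 0.098 CPM in CNTF and 23.4, 22.3, 24.2 and 24.2 CPM with serum, 180.2-fold higher. The fold of such genes rests on few counts in CNTF, at most 14 in a library for Akr1c14 and for Gria1.

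The others of the 10 largest rises were the small leucine-rich proteoglycans Ogn and Omd, Thbs1, Elobl, the junction protein F11r, the latent TGF-beta binding protein Ltbp2 and the collagen Col8a2. Ogn was 0.508, 0.736, 0.832 and 0.849 CPM in CNTF and 124, 136, 135.4 and 139 CPM in CNTF+5% FBS, 171.1-fold higher. F11r was 0.294, 0.245, 0.181 and 0.343 CPM in CNTF and 26.3, 31, 31.4 and 29.8 CPM with serum, 101.1-fold higher. Several of these genes encode secreted proteins of the matrix. Among the 10 largest falls, beside Opalin, Sox10, Dcx, Mfng, Hes5, Mbp and Thbs2, were the keratin Krt8, the synaptic organiser Cbln2 and the fatty acid transport protein Slc27a3. Krt8 was 9.97, 9.33, 10.7 and 10.5 CPM in CNTF and 0.465, 0.328, 0.211 and 0.321 CPM in CNTF+5% FBS, 33-fold lower (log2FC -5.04). Slc27a3 fell from 381 ± 9.11 to 21.3 ± 1.8 CPM, 19.4-fold.

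Serum was also compared between cultures without CNTF, 5% FBS against SPONT, which share no library with the comparison above. Of 15179 genes, 5175 were called (34.1%), 2914 higher (19.2%) and 2261 lower (14.9%), and without 5% FBS replicate 4 only 1472 were called lower. In these groups 35 genes of 9387 in SPONT and 56 of 9627 in 5% FBS separated replicates 1 and 2 from 3 and 4 at least 2-fold, against 6 in CNTF, Mbp among those of SPONT, with 749, 567, 116 and 114 CPM in SPONT and 13, 70.6, 17.4 and 11.4 CPM in 5% FBS. Over 14925 genes tested in both, the log2FC with and without CNTF correlated with r = 0.762, a value across genes, which are not independent replicates. Of 3572 such genes changed at least 2-fold with CNTF, 2044 (57.2%) were called in the same direction without it, 46 (1.29%) in the opposite direction and 1482 (41.5%) were not called. The SE was larger without CNTF, 0.211 against 0.0342 for Gfap and 0.249 against 0.0881 for Acta2. A missing call there therefore does not show a missing effect. The 1662 genes changed at least 2-fold in the same direction in both were 46.5% of those with CNTF and 65.2% of the 2549 without.

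**Figure D4:**
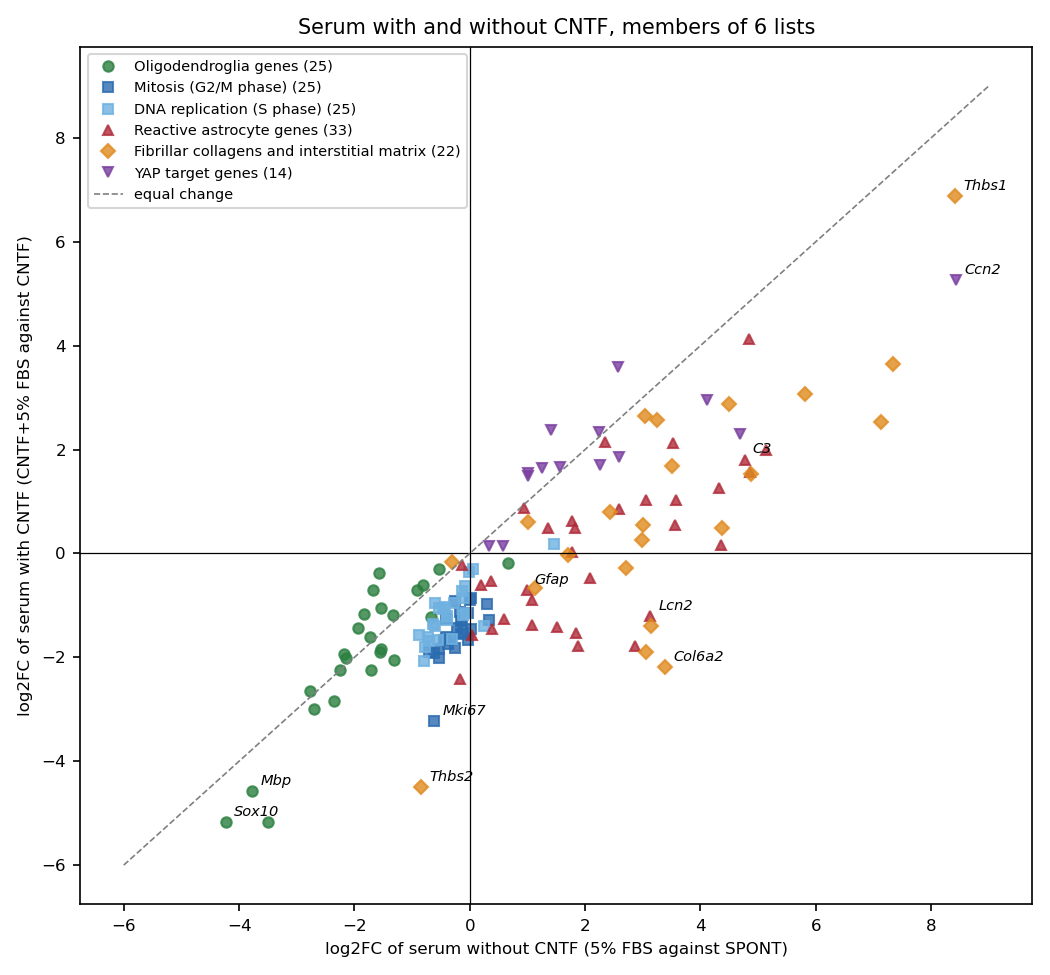
Serum effect without CNTF (horizontal axis, log2FC of 5% FBS against SPONT) and with CNTF (vertical axis, log2FC of CNTF+5% FBS against CNTF) for members of 6 gene lists, 1 point a gene, with the dashed line at equal change. Oligodendroglia genes lie near that line, mitosis genes lie left of or near 0 on the horizontal axis and below 0 on the vertical axis, and Col6a2, Lcn2 and Gfap lie at the lower right.

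The difference between both serum effects was tested as an interaction over the 16 libraries. A serum effect is here the signed log2FC. A lower effect can thus be a weaker rise, a deeper fall or a fall in place of a rise, and a higher effect the reverse. Of 15726 genes, 3600 were called (22.9%), with the serum effect higher in the presence of CNTF in 1616 (10.3%) and lower in 1984 (12.6%). With library totals in place of TMM the split was 2236 higher and 1384 lower, and without SPONT replicate 2 it was 2849 higher and 3200 lower (6049 called), so both the split and the count moved with these settings. Genes called lower with CNTF but higher without numbered 141, and the reverse held for 90 genes. The interaction was called in all of these, but their choice by opposite calls in the same libraries made that nearly certain.

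The largest differences by list were in matrix and reactive genes. Of 23 fibrillar matrix genes, 20 had a lower serum effect in the presence of CNTF and none a higher one by edgeR (none at an unadjusted p below 0.05, and none by DESeq2). Their median log2FC was 3.15 without CNTF, where 20 were higher and none lower, against 0.586 with it. Of 33 reactive genes, 26 had a lower serum effect with CNTF and none a higher one (none at an unadjusted p below 0.05 and none by DESeq2). Without CNTF, 26 of them were higher with serum and none lower, with a median of 1.85. Of 24 contractile genes 16 had a lower effect with CNTF and none a higher one (1 at an unadjusted p below 0.05, none by DESeq2), with a median of 1.44 without CNTF.

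Col6a2 crossed from a rise to a fall. It was 12.2, 11.5, 9.42 and 9.36 CPM in SPONT and 100.5, 142, 96.6 and 100.4 CPM in 5% FBS, against 137 ± 7.41 CPM in CNTF and 32.4 ± 2.08 CPM in CNTF+5% FBS. Serum raised it without CNTF (log2FC 3.38, adjusted p = 2.29e-07) and lowered it with CNTF, and the interaction was -5.55 (SE 0.178, adjusted p = 3.81e-12). The skin adhesion protein Cdsn was 0.719 ± 0.226 CPM in SPONT, 3.39 ± 1.75 in 5% FBS, 69.5, 75.1, 71.4 and 77.2 in CNTF and 8.11, 7.44, 8.85 and 8.67 in CNTF+5% FBS, with an interaction of -5.49. Serpinf2, the inhibitor of plasmin, was 0.679 ± 0.22, 4.33 ± 2.28, 11.9 ± 0.654 and 1.67 ± 0.358 CPM in the same order, with an interaction of -5.61. In all 3 the mean was highest in CNTF, though for Col6a2 the ranges of CNTF and 5% FBS overlapped.

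Col15a1 and Ccn5 showed other shapes. Col15a1, a collagen of basement membranes, was 1.48 ± 0.592 CPM in SPONT, 148 ± 82.5 in 5% FBS, 4.81 ± 0.374 in CNTF and 6.78 ± 0.691 in CNTF+5% FBS, so the rise seen with serum alone was nearly missing with CNTF (interaction -6.26, SE 0.449, adjusted p = 4.07e-08). Ccn5, a matrix protein of the Ccn family, was 0.715 ± 0.126, 317 ± 77.8, 39.8 ± 0.33 and 399 ± 21.6 CPM, with either factor alone raising it (interaction -5.58). Cyp26b1 was 0.491 ± 0.225 CPM in SPONT and 17.2 ± 7.9 CPM in 5% FBS and stayed near 1 CPM in both CNTF groups (interaction -5.37).

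Other genes differed in the opposite direction. Nxph1, a ligand of neurexins, was 6.61 ± 1.14 CPM in SPONT, 1.97 ± 0.52 in 5% FBS, 4.92, 4.42, 4.38 and 5.09 in CNTF and 15.2, 15.6, 17.9 and 16.4 in CNTF+5% FBS. It fell with serum alone (log2FC -1.74) and rose with serum in CNTF (log2FC 1.67), with an interaction of 3.43 (SE 0.227, adjusted p = 1.52e-08). Neto1, an auxiliary subunit of glutamate receptors, followed the same order, with 11.5 ± 3.6, 2.35 ± 0.87, 10.9 ± 0.369 and 17.3 ± 1.11 CPM and an interaction of 2.84. Slc4a4 fell from 215 ± 69.96 to 91.2 ± 22.1 CPM with serum alone, where it rose in CNTF (interaction 2.79). Adamts12, Col28a1 and Synpo2l completed the 6 highest.

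**Figure D5:**
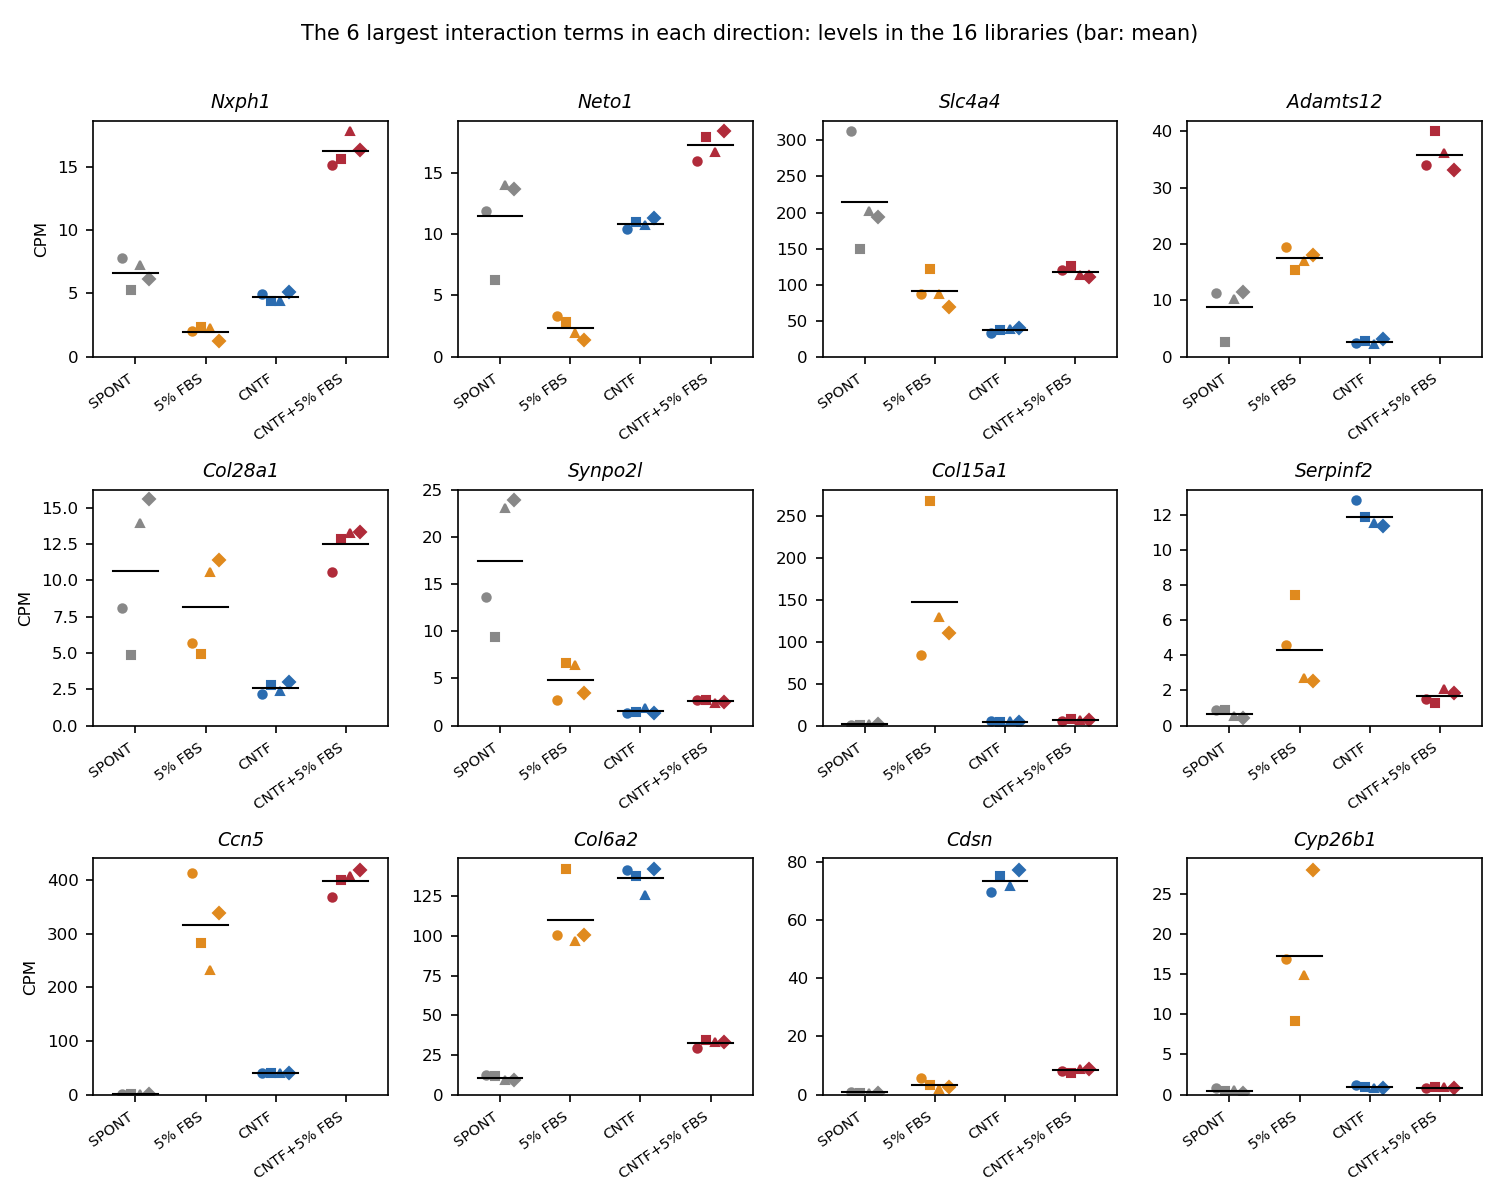
Levels (CPM, linear vertical axes that differ between panels) of the 6 genes with the largest interaction in each direction, for SPONT, 5% FBS, CNTF and CNTF+5% FBS along the horizontal axis, a symbol for each of the 16 libraries and a bar at the mean. Cdsn and Serpinf2 are highest in CNTF, Col15a1 and Cyp26b1 are highest in 5% FBS, and Nxph1 is highest in CNTF+5% FBS.

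None of the 25 mitosis genes was called for serum without CNTF by edgeR (1 lower at an unadjusted p below 0.05, none by DESeq2), with a median log2FC of -0.222. The SE was larger there, 0.248 against 0.0719 with CNTF for Cdc20. The missing calls therefore do not show that serum left these genes unchanged. By the interaction test 18 had a lower serum effect in CNTF, 17 of them by at least 2-fold. With a median of -1.53 in CNTF, the list as a whole fell more steeply with serum there. Mki67 was 36, 49.2, 33.5 and 30.5 CPM in SPONT and 30.5, 37.5, 15.9 and 13.5 CPM in 5% FBS, with overlapping groups, and its interaction was -2.60 (SE 0.351, adjusted p = 3.55e-05). Of 25 replication genes 19 had a lower serum effect in CNTF, and the median of that list was -1.18 with CNTF and -0.393 without. CNTF without serum raised Mki67 against SPONT (log2FC 1.42, adjusted p = 3.33e-05), in a comparison with 19.9% of genes called.

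None of the 25 oligodendroglial genes was called for the interaction by edgeR (2 higher at an unadjusted p below 0.05, 1 by DESeq2), and the median serum effect was -1.71 without CNTF, where 16 were lower and none higher, and -1.84 with it. Without 5% FBS replicate 2, 4 of them were called for a higher effect in CNTF. This does not show equal effects, since the groups without CNTF varied widely: the interaction of Mbp was -0.79 with an SE of 0.837 and that of Sox10 -0.93 with an SE of 0.537. Of cholesterol genes 6 of 25 had a higher and 1 a lower effect in CNTF, and Fdft1 fell without it too (log2FC -1.86, interaction -0.21, SE 0.17, adjusted p = 0.331). Leaving out SPONT replicate 4 or CNTF+5% FBS replicate 4 left 3 cholesterol genes with a higher effect, and leaving out SPONT replicate 2 gave 3 with a lower one. The median of YAP targets was 1.90 without and 1.87 with CNTF. Ccn2 reached 436 ± 108.8 CPM with serum alone (interaction -3.16, adjusted p = 7.62e-07). Of YAP targets 4 had a lower and 2 a higher effect in CNTF, and without SPONT replicate 2 the latter were 5. Notch genes had 4 higher and 2 lower, with 8 higher without that library.

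Several genes of the CNTF response were also raised by serum alone. Socs3 was 6.02, 5.84, 6.75 and 6.75 CPM in SPONT and 48.8, 41.2, 35.1 and 34.7 CPM in 5% FBS, so serum raised it without CNTF (log2FC 2.66, adjusted p = 2.82e-07), and the interaction was -3.70 (SE 0.352, adjusted p = 8.49e-07). Bcl3 was 0.706 ± 0.335 and 5.89 ± 2.82 CPM without CNTF, with an interaction of -4.49. C3 was 53.7 ± 26.7 and 1456 ± 399 CPM (interaction -2.94), and Gfap 7879.9 ± 1815 and 15524 ± 3611 CPM (log2FC 0.98, interaction -1.67, adjusted p = 2.98e-05). Of 20 gp130 and STAT3 genes 8 had a lower and 1 a higher serum effect in CNTF, and without SPONT replicate 1 or 2 the latter were 3 and without 5% FBS replicate 2 they were 2. Il6st was 182 ± 39.1 and 739 ± 40.5 CPM without CNTF and was not called for the interaction (0.304, SE 0.142, adjusted p = 0.0984).

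Read the other way, the effect of CNTF in the presence of serum was called in 23.3% of genes. Gfap was not among them (CNTF+5% FBS against 5% FBS, log2FC -0.16, adjusted p = 0.462), while CNTF without serum had raised it (log2FC 1.503). Acta2 was lower with CNTF in serum (log2FC -2.03, adjusted p = 1.13e-05), as were Ccn2 (log2FC -1.54) and Col1a1 (log2FC -3.61). Slc27a3, at 21.6 ± 2.1 CPM in SPONT, was raised by CNTF alone (log2FC 4.16) and stood at 18.3 ± 2.56 CPM in 5% FBS and 21.3 ± 1.8 CPM with both factors (log2FC 0.14, adjusted p = 0.345). These values share libraries with the serum comparisons and add no separate evidence.

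The cultures with other amounts of serum place the combined culture on a scale. Mean Acta2 was 1.52, 20.7, 248.3, 801.7 and 2503 CPM at 0, 1, 5, 10 and 20% FBS without CNTF (n = 4 each), and the 64.3 CPM of CNTF+5% FBS lay between the levels at 1 and 5%. Mean Ccn2 was 1.27, 22.3, 436.1, 648.3 and 954.4 CPM, with 157 CPM in the combined culture, again between 1 and 5%. Mean Thbs1 was 0.637, 3.06, 215.5, 521.1 and 983.8 CPM, with 59.9 CPM. All 3 genes of contraction and matrix thus stood below their level at the same serum without CNTF.

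Other genes took other places. Mean Mki67 was 37.3, 46.1, 24.3, 13.7 and 7.45 CPM over the same series. Its 11.4 CPM in the combined culture lay between the means at 10 and 20%, but within the range of 9.82 to 18.3 CPM at 10%. Mean Hes5 was 160.0, 83.2, 13.9, 0.984 and 0.131 CPM, with 4.52 CPM between 5 and 10%. Mean Il6st was 182.4, 369.5, 739.2, 865.2 and 905.1 CPM, with 891 CPM between 10 and 20%, whose ranges overlap its own. Mean C3 was 53.7, 454.4, 1456, 1783 and 1097 CPM, so its 1909 CPM lay above each of these means, although the libraries at 10% reached 2042 CPM. Mean Gfap was 7880, 18588, 15524, 9388 and 4017 CPM, highest at 1%, and the 14686 CPM of the combined culture fell within the range of 11774 to 18686 CPM at 5%.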

How the data were processed

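Poly(A) RNA from ribosomes of RiboTag NPC was sequenced in 107 libraries, of which 8 entered the main comparison and 16 the 2 by 2 design with SPONT and 5% FBS. The authors deposited counts per Entrez gene, made in Galaxy by joining lanes, trimming with Trimmomatic, aligning to mm10 with HISAT2 and counting with featureCounts. Both mates of a pair were counted, so counts exceed fragments in paired libraries, and reads shared by near-identical genes or overlapping antisense genes may be misassigned.

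Groups were taken from sample titles. The deposited counts were tested with the quasi-likelihood F test of edgeR 4.0.16 in R 4.3.3 after filterByExpr (minimum count 10) and TMM scaling, with Benjamini-Hochberg adjustment over all genes and calls below 0.01. The SE is the log2FC over the square root of F. Serum effects were fitted on 8 libraries each and the interaction on 16. Alternatives were DESeq2 1.42.0, other scalings and filters, larger fits, a replicate block and leaving out each library. Plots were drawn with matplotlib 3.10.9 in Python 3.11.15, from files read with pandas 2.3.3. On data simulated for the main comparison (15082 genes), 66 of 67 genes changed 2-fold were recovered, and for the interaction (15558 genes) 52 of 67. At 1.5-fold these were 58 and 19 of 67. The simulation changed few genes, left all others flat and gave every group the same dispersion of a gene. In the real data most genes were called and the groups differed in spread, so these counts do not tell how many real changes were found.

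Members and the 40 gene lists were chosen with earlier results of these data known. Named genes were the 10 largest rises and falls of at least 10 CPM, the 6 largest interactions each way, up to 5 called members of each list with the largest change and at least 5 CPM, and the genes a list is built on. The following were chosen after their values were seen: Actb, Actg1, Amotl2, Arhgef17, Bmpr1b, Ccnd1, Ccnd3, Cdh1, Cdkn1a, Cdkn1b, Cdkn2b, Cdkn2c, Cish, Cnn2, Col5a1, Col6a1, E2f1, Egr1, Ermn, Flna, Gja1, Hey1, Hey2, Ier2, Junb, Kcnj10, Lars2, Lats2, Lfng, Lifr, Myl9, Nfia, Notch1, Notch2, Notch3, Olig2, Osmr, Prc1, Sc5d, Slc1a3, Sox2, Sox9, Sqle, Srf, Stard4, Steap4, Tgfb2, Timp1, Vcl, Vim, Zbtb20, Zfp36, mt-Rnr1 and mt-Rnr2. Promoter sequences are from RefSeq on GRCm38.p6, the build called mm10. Some genes of the lists are counted but not reported here by name.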

Additional observations from a re-analysis of the deposited data

Results flagged for a closer look

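In 18 of 264 groups of 4 libraries, a single library lay far from the other 3 by Dixon's criterion, which chance alone meets in about 1 in 20 groups. In 5% FBS, replicate 2 was the highest in Mbp (70.6 CPM), Sox10 (5.18 CPM), Mfng (3.09 CPM), Dcx (1.71 CPM), Col1a1 (278.2 CPM), Col6a2 (142.2 CPM) and Pdgfra (143.8 CPM), and replicate 1 in Acta2 (328.6 CPM) and Cnn1 (25.4 CPM). In SPONT, replicate 2 was the highest in Acta2 (2.17 CPM), Fdft1 (261.0 CPM), Fdps (166.5 CPM) and Apoe (16180.0 CPM), and replicate 1 in Aqp4 (99.3 CPM) and Cdsn (1.05 CPM). In CNTF+5% FBS, replicate 4 was the highest in Tagln (25.2 CPM) and Cnn1 (24.9 CPM), and replicate 2 the lowest in S100b (24.01 CPM).

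The serum effect differed between cultures with and without CNTF, by the interaction test of edgeR, in 22.9% of all genes tested. It was higher in CNTF in 1616 genes and lower in 1984. It also differed in 36 of the 66 genes described most closely. Some of these 66 were named for their large interaction, so the count follows in part from that choice and cannot be set against the share of all genes. Among genes of the CNTF response, the interaction log2FC was -1.67 for Gfap, -3.70 for Socs3, -4.49 for Bcl3, -2.94 for C3, -3.12 for Cp, -2.22 for Hspb1, -2.43 for Serpina3n and -4.32 for Lcn2. Among genes of division it was -2.60 for Mki67, -1.48 for Ube2c, -1.29 for Cdc20, -1.10 for Mcm5, -2.10 for Ccnd2 and -0.63 for Cdkn1c. Among contractile, YAP and transition genes it was -2.65 for Acta2, -2.36 for Tagln, -1.92 for Cnn1, -2.38 for Ccn1, -3.16 for Ccn2 and -2.30 for Snai1. Among matrix genes it was -1.51 for Thbs1, -3.35 for Col1a1, -2.71 for Fn1, -3.64 for Thbs2, -2.73 for Loxl2, -5.55 for Col6a2, -6.26 for Col15a1 and -5.58 for Ccn5. Of the others, Krt8 had -2.82, Serpinf2 -5.61, Cdsn -5.49, Cyp26b1 -5.37 and Igfbp2 -3.39. The positive terms were 2.79 for Slc4a4, 3.43 for Nxph1 and 2.84 for Neto1.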

How the results depend on the processing

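Of the 221 single values recomputed, none that was called changed direction under an alternative, while the medians of reactive and of immediate early genes changed sign. Of the settings tried for the 79 counts and medians, 1417 gave a value close to the one reported and 35 did not, and of those tried for 221 single values 24 lost a call and 3 gained it. Replicate numbers were not taken as pairs. Same-numbered deviations correlated with r between -0.010 and 0.033 with CNTF, and without CNTF with r between 0.0586 and 0.197, where 3 of 4 pairs were above 0.1 and 3 of 4 libraries matched their own number best, so shared preparation there was neither shown nor denied. A replicate block gave 11019 called genes for serum with CNTF, 5432 for serum without it and 3332 for the interaction. Leaving out a library in turn gave 1472 to 2504 genes lower with serum alone, and 2702 to 6049 called, 1212 to 2849 higher and 1437 to 3200 lower for the interaction, with the upper ends reached without SPONT replicate 2. The same omissions gave 1 to 3 gp130, 0 to 4 oligodendroglia, 4 to 8 Notch, 2 to 5 YAP, 3 to 8 cholesterol, 2 to 5 transition and 1 to 4 integrin genes with a higher interaction, 1 to 3 cholesterol genes with a lower one, and 0 to 1 transition genes lower with serum in CNTF. With DESeq2 the gp130 and oligodendroglia counts were 2 and 1. With library totals the gp130 count was 2, 1 replication gene was higher and 3 contractile genes were lower. With a stricter filter on low counts, which left fewer genes to test, the median log2FC in CNTF was -0.213 for reactive, 1.79 for YAP, 0.805 for fibrillar matrix, -0.375 for astrocyte, 1.01 for transition and 1.33 for integrin genes, and 3 immediate early genes were higher. Fitting 32 libraries gave medians of -0.636 for cholesterol and -0.470 for astrocyte genes, and using CNTF replicates 1 and 2 or 3 and 4 alone, settings added after seeing the data, gave 0.124 and -0.310 for immediate early genes. The cause of these shifts was not tested. The single values that lost a call in some setting included those of Cx3cl1, Egr2, Fn1, Fos, Pdgfra and Tfrc, and Slc1a2, Stat3 and Id3 gained it. A count of 3 in a library corresponded to 0.0364 to 0.0543 CPM, which limits the lowest genes and covers counting error only.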
